A study of Monodelphis domestica with 2 samples.

Results

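A set of 50 nuclei of opossum visual cortex that the study's authors had left out of their taxonomy carried strong NOS1 and TACR1, and are described here as the left-out NOS1 nuclei. NOS1 makes neuronal nitric oxide synthase and TACR1 the substance P receptor. The nuclei were found inside the clusters that the deposited metadata placed in the non-neuronal class and marked as ambiguous. Those clusters held 276 nuclei, and the 50 were those with at least 1 unique molecular identifier (UMI, a counted RNA molecule) for 3 or 4 out of NOS1, TACR1, SST and LHX6. The files held 36558 barcodes, of which 35079 passed the authors' quality call and 32764 carried a cell type label. The levels of these 4 genes chose the nuclei and are given as a description.

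The study profiled the primary visual cortex of a marsupial, the opossum Monodelphis domestica, by single-nucleus RNA sequencing with 3′ droplet libraries. The samples were a single group of 2 adult males, animal 1 aged 1.5 years and animal 2 aged 2 years. Cortex of both hemispheres was pooled for each animal and frozen, and nuclei were sorted on the DNA dye Draq5. Each suspension was split into 2 libraries, called 1A and 1B for animal 1 and 2A and 2B for animal 2, so the animal was the replicate and values were taken on sums of UMIs per animal (n = 2).

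In the cortex of placental mammals, a sparse population of GABAergic neurons contains very high neuronal nitric oxide synthase. These cells, often called type I NOS1 neurons, arise in the medial ganglionic eminence (MGE), the embryonic source of Sst and Pvalb interneurons. They release nitric oxide, which activates guanylyl cyclase and raises cGMP in neighbouring cells. They are known for co-expressing somatostatin (SST), neuropeptide Y (NPY), the substance P receptor and chondrolectin (CHODL), for axons that reach over long distances within the cortex, and for activity during sleep. LHX6 is a transcription factor of neurons from the MGE.

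The 4 libraries held 59170718, 55625042, 61251720 and 69706055 UMIs in the order 1A, 1B, 2A and 2B. The 50 nuclei lay in all of them, with 13 and 15 in the libraries of animal 1 and 7 and 15 in those of animal 2. They had a median of 6949.5 UMIs, between 1077 and 13709, and a median of 2717.5 detected genes. Labelled Sst nuclei had a median of 5670 UMIs, and the other 226 left-out ambiguous nuclei 1684. The Scrublet doublet score, which runs from 0 to 1, had a median of 0.0201 in the 50, and 1 of them was called a doublet. Non-neuronal clusters that had been left out as doublets had a median score of 0.355. Of the barcodes, 134 occurred in more than 1 library, and 0 of these belonged to the 50. Summed, the nuclei gave 192351 UMIs in animal 1 and 155551 in animal 2, so that 1 UMI was worth 5.20 and 6.43 CPM, the count per 1e+06 UMIs.

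The left-out NOS1 nuclei were 0.163% of the nuclei that passed quality in animal 1 (28 of 17175, exact 95% Clopper-Pearson interval 0.108 to 0.236%) and 0.123% in animal 2 (22 of 17904, interval 0.0770 to 0.186%). Their mean share was 0.143% ± 0.0284 (SD, n = 2 animals). Intervals on shares of nuclei cover counting error only. There were 5.19 and 4.57 of them for every 100 labelled Sst nuclei. The share ranged from 0.0924% in library 2A to 0.177% in library 1B. In two-sided Fisher's exact tests the shares gave an adjusted p of 0.707 between 1A and 1B, 0.586 between 2A and 2B and 0.586 between the animals, over 3 tests with Benjamini-Hochberg adjustment. The tests concern these libraries, and the small counts would leave a moderate difference undetected.

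The 4 selecting genes divided the 276 left-out nuclei with a gap. Of these nuclei, 218 had a UMI of 0 of the 4 genes, 8 had 1 gene, 0 had 2, 13 had 3 and 37 had all 4. The gap describes the genes that chose the nuclei. The 226 nuclei outside were also shallower, with a median of 1684 UMIs against 6949.5. Among the 13 nuclei just inside the threshold, SST was the missing gene in 11, NOS1 in 1 and LHX6 in 1. Outside the 50, 0 nuclei of any labelled subclass had all 4 genes. At least 3 of them were found in 46 of 1020 labelled Sst nuclei, 10 of 2146 Pvalb nuclei and 0 of 8267 labelled non-neuronal nuclei.

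**Figure D1:**
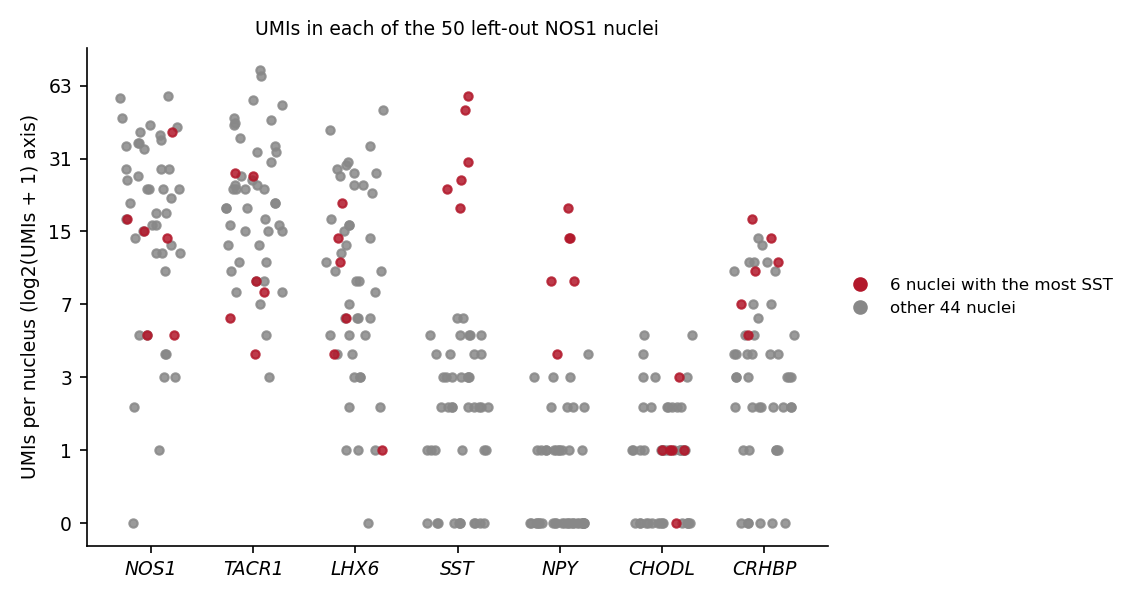
UMIs per nucleus (vertical axis spaced by log2(UMIs + 1)) of the selecting genes NOS1, TACR1, LHX6 and SST and of NPY, CHODL and CRHBP. Each point is 1 of the 50 left-out NOS1 nuclei, and the 6 nuclei with the most SST are red. NOS1 and TACR1 have medians of 18 and 19.5 UMIs, whereas the highest counts of SST and NPY are those of the red points.

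NOS1 and TACR1 were high in nearly every nucleus chosen. NOS1 (ENSMODG00000015380) stood at 3354, 3196, 3396 and 2403 CPM in libraries 1A, 1B, 2A and 2B. It was at 9.86 and 11.4 CPM in labelled Sst nuclei of animals 1 and 2. Per nucleus, NOS1 had a lowest count of 0, a median of 18 and a highest of 57 UMIs, while the highest count in any labelled nucleus was 8, in a Lamp5 nucleus. TACR1 (ENSMODG00000011268) stood at 3522, 3931, 2217 and 3284 CPM in libraries 1A, 1B, 2A and 2B, against 10.1 and 9.51 CPM in Sst nuclei of the 2 animals. It was found in all 50 nuclei, at 3 to 73 UMIs. LHX6 (ENSMODG00000019686) was at 1713, 2168, 1855 and 1653 CPM in the same order of libraries, and at 324 and 316 CPM in Sst nuclei. These values belong to the selection.

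SST was less uniform than the other 3 selecting genes. SST (ENSMODG00000008503) makes somatostatin, an inhibitory peptide, and stood at 647 and 946 CPM in the libraries of animal 1 and at 1887 and 272 CPM in those of animal 2. In labelled Sst nuclei libraries 1A, 1B, 2A and 2B gave 336, 365, 303 and 282 CPM, so that library 2B did not exceed them. A UMI of SST was found in 39 of the 50 nuclei, but 204 of its 302 UMIs (67.5%) came from 6 nuclei with 19 to 57 UMIs each. The next highest nucleus had 6. Of the 6 nuclei, 1 and 2 came from libraries 1A and 1B, 3 and 0 from 2A and 2B, and 0 of them were called doublets. Without the 6, the log2 ratio of SST to labelled Sst nuclei went from 1.43 ± 0.32 (SD, n = 2 animals) to -0.012. SST above the level of labelled Sst nuclei rested on these 6.

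NPY followed SST within these nuclei. NPY (ENSMODG00000000745) makes neuropeptide Y, an inhibitory peptide that played no part in the selection. It stood at 240, 331, 598 and 76.1 CPM in libraries 1A, 1B, 2A and 2B. The 6 nuclei rich in SST held 69 of the 101 NPY UMIs (68.3%), and all 6 had at least 1, against 19 of the other 44. Summed, the 6 were at 5412 CPM for SST and 1831 for NPY, and the 44 at 316 and 103. Without the 6, the log2 ratio of NPY to labelled Sst nuclei went from 5.50 ± 0.44 (SD, n = 2 animals) to 3.88. With all 50 nuclei it was 6.999 when 1 CPM was added in place of 5 CPM and 3.84 when 20 CPM was. The other markers were closer between these subsets. CHODL was at 186 CPM in the 6 and 171 in the 44, CRHBP at 1698 and 574, NOS1 at 2547 and 3124, and TACR1 at 2122 and 3498. Among genes with at least 10 UMIs, 6 of 652 were at least 4-fold higher in the 6 and present in at least 4 of them, and NPY and SST were the only ones with a symbol. At least 4-fold lower were 7 of 640 genes, and RASGRF2, SIAH3, PCDH7, GRIK3 and ST7 were those with a symbol. The 6 nuclei were picked for their SST after its values were seen, so these figures describe them without a test.

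**Figure D2:**
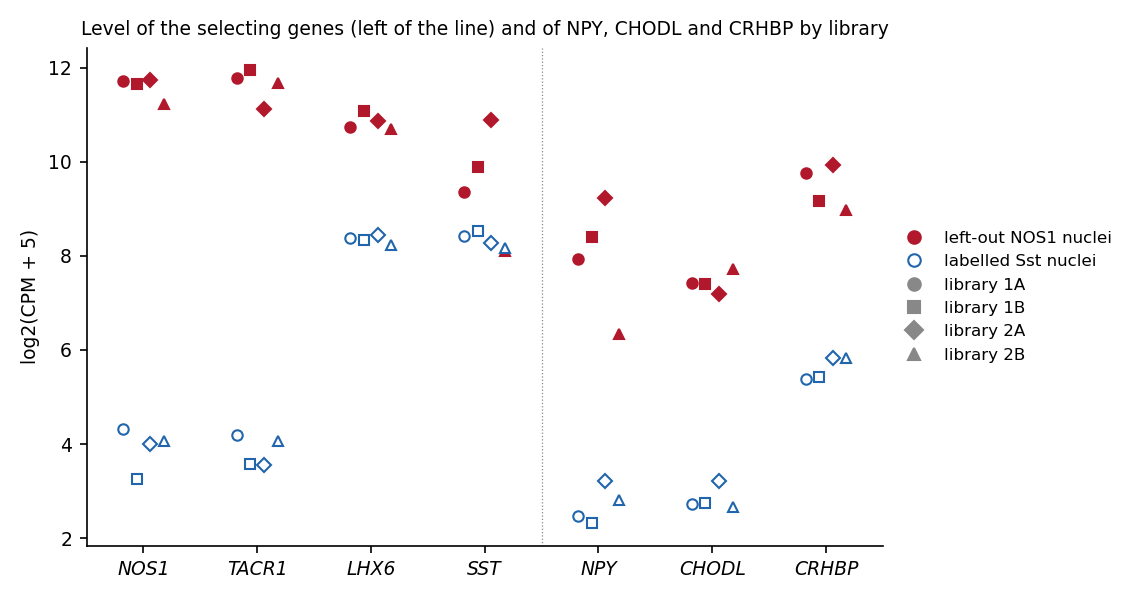
Level, as log2(CPM + 5), of the selecting genes NOS1, TACR1, LHX6 and SST, left of the dotted line, and of NPY, CHODL and CRHBP in the left-out NOS1 nuclei (filled) and in labelled Sst nuclei (open), 1 point per library. The groups lie apart for every gene but SST, where library 2B was at 272 CPM against 282 in Sst nuclei. The other genes were selecting genes or had been called 4-fold higher in both animals.

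All 5 marker genes of type I NOS1 neurons that were listed, NOS1, TACR1, CHODL, NPY and CRHBP, were at least 4-fold above labelled Sst nuclei in both animals, where 1.52% of all genes were. NOS1 and TACR1 were selecting genes, and of the other 3 only CRHBP had a mean of at least 20 CPM in Sst nuclei as well, so the count is no support for the set. Beside NPY, the measured markers outside the selection were CHODL and CRHBP. CHODL (ENSMODG00000037721), a membrane protein with a lectin domain, stood at 168, 165, 142 and 207 CPM in libraries 1A, 1B, 2A and 2B, and at 1.69 and 2.66 CPM in Sst nuclei of animals 1 and 2. CRHBP (ENSMODG00000019745), which binds corticotropin-releasing hormone outside the cell, stood at 863, 569, 975 and 500 CPM, and at 37.5 and 52.1 CPM in Sst nuclei. NPY in Sst nuclei was at 0.28 and 3.04 CPM, or 1 and 8 UMIs. For these 3 genes, already 4-fold higher in both animals, the left-out nuclei were above Sst nuclei in each library. The libraries of an animal were splits of 1 suspension, and no share over all genes is given beside this.

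Single nuclei carried these markers together. A UMI of all 3 of CHODL, NPY and CRHBP was found in 18 of the 50 nuclei (36.0%), of 2 of them in 19, of 1 in 11 and of 0 in 2. In labelled Sst nuclei, 2 of 1020 had 2 of the genes and 0 had all 3. NPY was detected in 25 of the 50 left-out nuclei (exact 95% interval 35.5 to 64.5%), 0.882% of Sst nuclei and 0.124% of oligodendrocytes, whose median depth was 1917 UMIs. CHODL was detected in 68.0%, 1.27% and 0.297% of the same groups, and CRHBP in 88.0%, 17.0% and 0.346%. After thinning every nucleus to 2000 UMIs, which kept 47 left-out nuclei, 881 Sst nuclei and 1846 oligodendrocytes, the shares were 31.9%, 0.568% and 0.00% for NPY. They were 21.3%, 0.114% and 0.271% for CHODL, and 63.8%, 7.26% and 0.217% for CRHBP. The order of the left-out nuclei above both other groups held at equal depth.

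Genes of GABA synthesis were present but low, and the vesicular transporter was near the limit of detection. GAD1 and GAD2 make the enzymes that form GABA. GAD1 was at 156 and 167 CPM in the left-out nuclei of animals 1 and 2, against 297 and 317 CPM in Sst nuclei. GAD2 was at 57.2 and 103 CPM, against 432 and 416. SLC32A1, the vesicular GABA transporter, was at 10.4 and 12.9 CPM, 2 UMIs in each animal, against 49.3 and 39.9. Neither GAD gene had a UMI in 20 of the 50 nuclei, 1 gene in 21 and both in 9, while 58.2% of Sst nuclei had both and 10.8% neither. At 2000 UMIs per nucleus, GAD1 was found in 29.8% of the left-out nuclei, 42.8% of Sst nuclei and 1.08% of oligodendrocytes, and GAD2 in 14.9%, 52.7% and 1.14%. The exact 95% interval of the left-out nuclei was 17.3 to 44.9% for GAD1, which overlapped that of Sst nuclei (39.5 to 46.1%), and 6.20 to 28.3% for GAD2, which did not (49.3 to 56.0%). Both lay above the oligodendrocytes. SLC32A1 was found in 4 of the 50 left-out nuclei, 22.1% of Sst nuclei and 0.469% of oligodendrocytes, and after thinning in 0 of 47 (interval up to 7.55%), 9.19% (7.37 to 11.3%) and 0.542%, so that the intervals of the left-out and Sst nuclei overlapped. In the 6 nuclei rich in SST, GAD2 was at 26.5 CPM and GAD1 had 0 UMIs, where 3 UMIs would have been 79.6 CPM.

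Markers of glia, endothelial cells and glutamatergic neurons gave small sums, whereas the striatal list, of which PDE10A made up most, did not. The listed microglial genes summed to 0 and 6.43 CPM in the left-out nuclei of animals 1 and 2, against 1950 and 2090 CPM in microglia, with C1QA, CX3CR1, P2RY12 and PTPRC at 0 in both. Those of oligodendrocyte precursors summed to 0 and 6.43 CPM, against 1021 and 1024, with PDGFRA, OLIG2 and GPR17 at 0 in both. Oligodendrocyte genes summed to 265 and 51.4 CPM, or 1.97 and 0.381% of the level in oligodendrocytes. The astrocyte genes summed to 120 and 174 CPM, or 0.573 and 0.866% of astrocytes, and GFAP, AQP4, GJA1 and ALDH1L1 were at 0. Endothelial genes reached at most 1.88% of endothelial cells, with CLDN5, CDH5 and TEK at 0. The listed glutamatergic genes summed to 41.6 and 103 CPM, at most 5.77% of the highest glutamatergic subclass.

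Of the 10 measured markers of interneurons from the caudal ganglionic eminence, 9 were at 0 UMIs, VIP, LAMP5, ADARB2 and PROX1 among them, and the exception was RELN. The 3 measured genes of the Pvalb list summed to 6805 and 6249 CPM, 39.5 and 35.7% of the level in Pvalb nuclei, against 2206 and 1937 CPM in Sst nuclei. Nearly all of this was ERBB4, the neuregulin receptor, at 6701 and 6127 CPM, and the same sum was higher in Vip nuclei (17862 and 19344 CPM) and in oligodendrocytes (7803 and 7401 CPM), so it did not mark Pvalb nuclei. The Sst list summed to 816 and 964 CPM, against 480 and 397 in Sst nuclei, and SST of the selection made up nearly all of it. The other 2 genes of that list past the level filter passed it through Sst nuclei. CALB1, which encodes calbindin, had 0 and 2 UMIs, against 76.4 and 41.9 CPM in Sst nuclei, and ELFN1, a postsynaptic adhesion protein, 0 and 2 UMIs, against 50.2 and 60.9 CPM. General neuronal genes were at 3062 and 3433 CPM in sum, against 4811 and 4296 in Sst nuclei. Genes of striatal projection neurons summed to 4289 and 4262 CPM, against 827 and 967 in Sst nuclei. In that list PDE10A, which breaks down cAMP and cGMP, was at 3962 and 3793 CPM, while PENK and PPP1R1B were at 0, and DRD2 was at 5.20 and 0 CPM. PDE10A thus made up most of the sum, and the highest glial subclass reached 2803 and 2074 CPM on the same list. The part of other cell types in the profile was not tested beyond these sums.

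**Figure D3:**
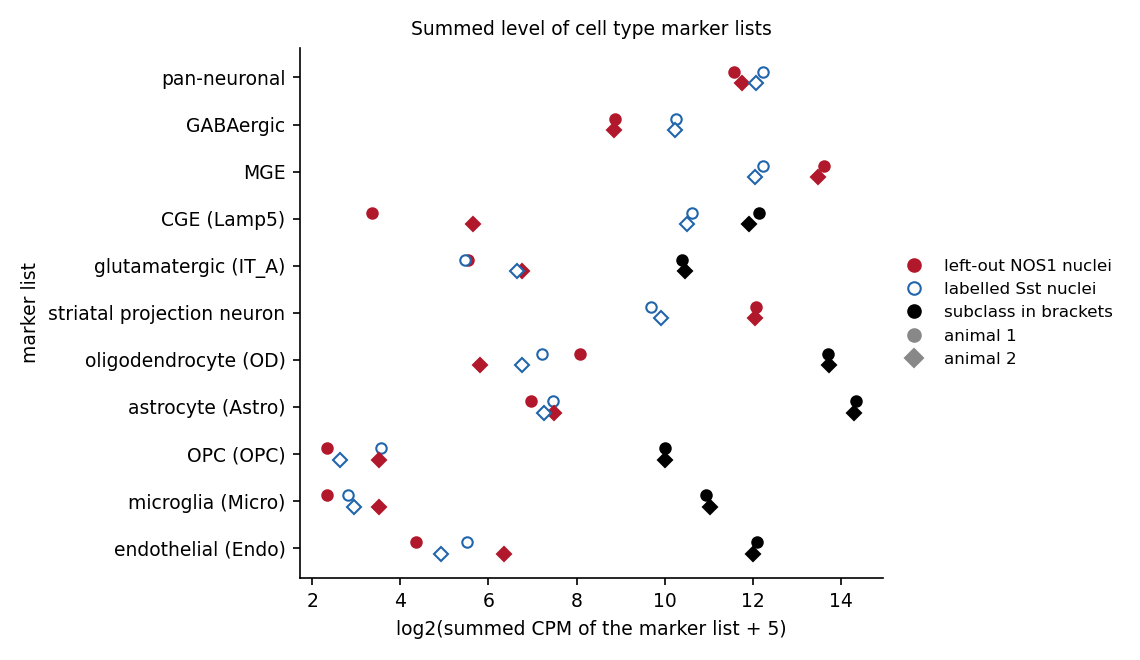
Summed level of each marker list, as log2(CPM + 5), in the left-out NOS1 nuclei (red), in labelled Sst nuclei (open) and, for lists with a subclass in brackets, in that subclass (black), 1 point per animal. The glial and endothelial lists stand in the left-out nuclei at 1.97% or less of the level in their own type, and the striatal list at 4289 and 4262 CPM against 827 and 967 in Sst nuclei. Most of the striatal sum is PDE10A.

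The whole profile was then set against labelled Sst nuclei, the GABAergic subclass with the highest SST. Ratios were taken on CPM with 5 CPM added to each value, for 6313 genes with a mean of at least 20 CPM over the 4 sums. A gene counted as different where the ratio was at least 4-fold in the same direction in both animals. The nuclei were chosen from clusters drawn from all genes, so the counts are descriptions without a test. There were 96 genes higher in the left-out nuclei (1.52% of those measured) and 173 lower (2.74%), and 0 were 4-fold apart in opposite directions in the 2 animals. Of the higher genes, 93 were outside the selection and 65 of these had a symbol. Of the lower genes, 112 had a symbol. A gene could reach the mean level through the group where it was high, and 52 of the 96 had a mean under 20 CPM in Sst nuclei while 104 of the 173 had one in the left-out nuclei. The median log2 ratio of all genes was -0.01. Across 6309 genes outside the selection, ratios in animal 1 and animal 2 had a Pearson correlation of 0.709 and a Spearman correlation of 0.515, which share the small depth of the left-out sums.

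**Figure D4:**
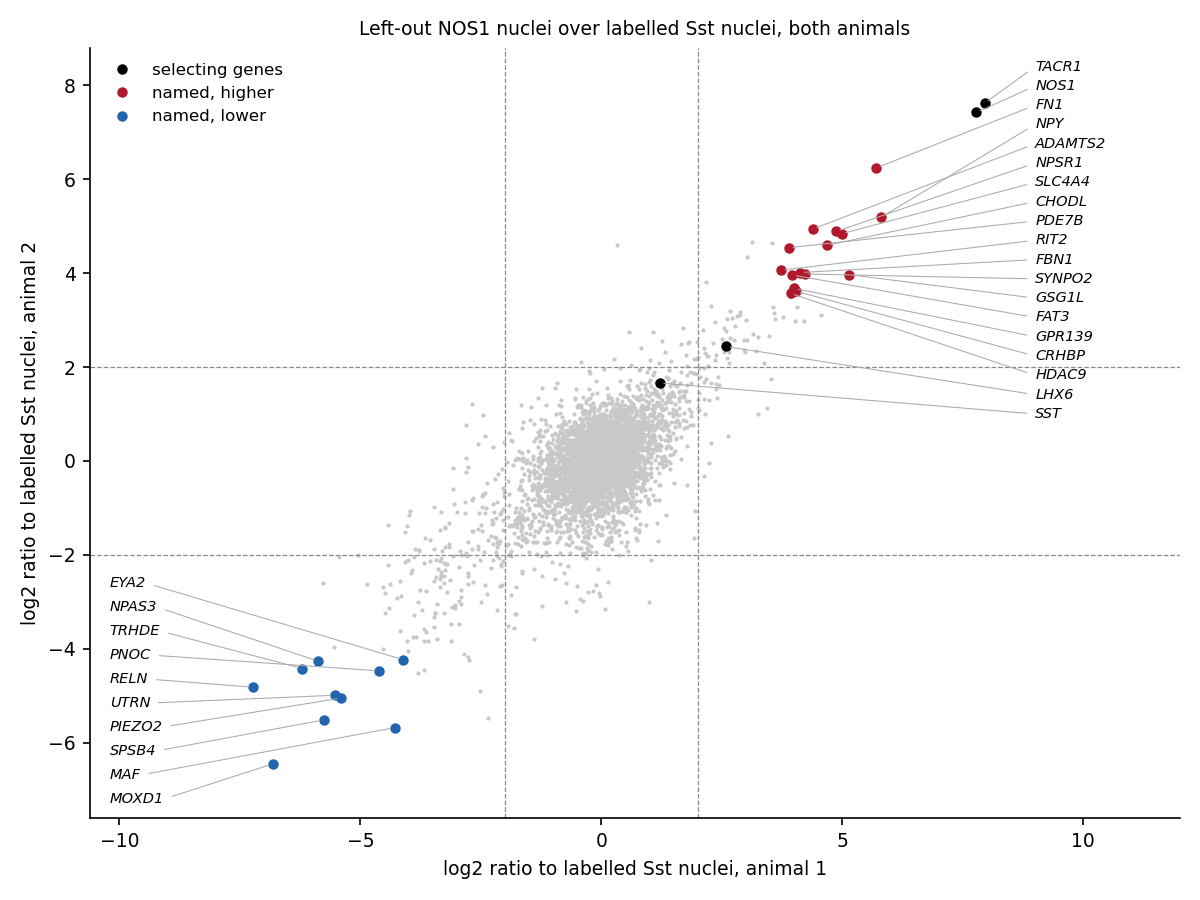
Log2 ratio of the left-out NOS1 nuclei to labelled Sst nuclei in animal 1 (horizontal) and animal 2 (vertical), 1 point per gene measured, with 5 CPM added to each value. Dashed lines mark 4-fold. The 15 named higher genes lie past 4-fold at the upper right, the 10 named lower genes at the lower left, and NOS1 and TACR1, which were among the selecting genes, at the upper end.

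Among the named higher genes were extracellular matrix proteins and a matrix enzyme. They were grouped here after their ratios were seen, with no count over all genes. FN1, which encodes fibronectin, was at 270 and 431 CPM in animals 1 and 2 and had 1 and 2 UMIs in the Sst sums. Its ratio with nothing added was 959 in animal 1 (exact counting interval 165 to 38605) and 566 in animal 2 (151 to 4770). FN1 was found in 28 of the 50 nuclei. FBN1, the microfibril protein fibrillin-1, was at 1466 and 1292 CPM, against 79.2 and 75.3, and was found in 49 nuclei. ADAMTS2, a procollagen peptidase, was at 359 and 405 CPM, against 12.4 and 8.37, but 29 of its 132 UMIs came from 1 nucleus, and oligodendrocyte precursors had more, 1443 CPM in animal 1. FAT3, an atypical cadherin of neurites, was at 1575 and 2186 CPM, against 96.4 and 136. With nothing added the left-out nuclei were 16.3-fold and 16.1-fold higher than Sst nuclei for FAT3, while the glutamatergic subclass IT_B had 2623 CPM in animal 1. Frem1 interneurons had 1092 and 1124 CPM of FAT3.

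Receptors and signalling proteins were also among the named higher genes, and were grouped in the same way. The receptor lists described below had medians of -1.51, -0.51 and -0.42. NPSR1, the neuropeptide S receptor, was at 166 and 244 CPM, against 0.85 and 3.42, but was found in 9 nuclei, and 6 of these held 91.4% of its 70 UMIs. GPR139, a receptor for aromatic amino acids, was at 198 and 141 CPM, against 7.61 and 6.47, and was found in 29 nuclei. GSG1L, an auxiliary subunit of AMPA receptors, was at 390 and 186 CPM, against 6.20 and 7.23, 62.9-fold and 25.8-fold higher with nothing added, but oligodendrocyte precursors had more (564 and 565 CPM). PDE7B, which degrades cAMP, was at 624 and 643 CPM, against 37.5 and 22.8. RIT2, a neuronal Ras-like GTPase, was at 177 and 212 CPM, against 8.74 and 7.99, and oligodendrocyte precursors again had more (475 and 446 CPM). PDE7B and RIT2 were not above every interneuron subclass, since Vip nuclei had more PDE7B in both animals and Lamp5 nuclei more RIT2 in animal 1.

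Other named higher genes had further roles. SLC4A4, a sodium bicarbonate cotransporter, was at 977 and 1086 CPM, against 25.9 and 33.1, below its level in astrocytes (1934 CPM in animal 1). SYNPO2, an actin-binding protein, was at 156 and 122 CPM, against 3.66 and 3.04. HDAC9, a class IIa histone deacetylase, was at 2459 and 2385 CPM, against 157 and 196, and was found in all 50 nuclei. Lamp5 nuclei also had much HDAC9, 1524 and 1474 CPM. Of the 65 higher genes with a symbol outside the selection, 31 had a glial subclass as their highest labelled subclass in both animals. For 32 the left-out nuclei were above each of the 18 labelled subclasses in both animals. By at least 4-fold this held for 8, namely CHODL, CRHBP, FAT2, FN1, GPC3, GPR139, NPY and TENT5A, of which FAT2 had just 3 UMIs in animal 2.

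The lower genes included several that were well expressed in labelled Sst nuclei. MOXD1, a relative of dopamine beta-hydroxylase, had 1 UMI in the left-out nuclei of each animal, or 5.20 and 6.43 CPM, against 1147 and 995 CPM in Sst nuclei, where it was the highest of all subclasses. It was 221 times lower in animal 1 (interval 39.6 to 8719) and 155 times lower in animal 2 (27.8 to 6117). SPSB4, a ubiquitin ligase adaptor, had 0 UMIs in both animals, against 267 and 224 CPM, at least 17.1-fold and 11.6-fold lower when set at 3 UMIs per animal. TRHDE, which inactivates thyrotropin-releasing hormone, was at 20.8 and 83.6 CPM, against 1893 and 1891. UTRN, which encodes utrophin, was at 10.4 and 19.3 CPM, or 2 and 3 UMIs, against 708 and 767 CPM, with ratios of 68.1 (interval 18.8 to 563) and 39.8 (13.6 to 193) times lower.

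Secreted and membrane proteins were also among them. RELN, which encodes the matrix glycoprotein reelin, was at 5.20 and 45.0 CPM, or 1 and 7 UMIs, against 1528 and 1404 CPM. PIEZO2, a mechanically gated channel, had 0 and 1 UMIs, against 207 and 374 CPM. It was at least 13.3-fold lower in animal 1 and 58.1 times lower in animal 2 (interval 10.4 to 2298). PNOC, the precursor of nociceptin, had 0 UMIs, against 118 and 106 CPM, at least 7.55-fold and 5.48-fold lower. EYA2, a transcriptional coactivator, had 0 UMIs, against 81.2 and 89.0 CPM, at least 5.20-fold and 4.62-fold lower. Sst was the highest of the 18 subclasses in both animals for 19 of the 112 lower genes with a symbol, and 23 of the 173 lower genes had 0 UMIs in the left-out nuclei of both animals.

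Of 16 listed interneuron transcription factors that passed the level filter, 1 was higher, LHX6 of the selection, and 5 were lower, where 1.52 and 2.74% of all genes were, with a list median of -0.96 without LHX6 beside -0.01 for all genes. SOX6, which acts after LHX6 in MGE neurons, was in all 50 nuclei, at 3759 and 3420 CPM against 958 and 944, and remained just under 4-fold (log2 ratios 1.97 and 1.85). MAF, another factor of MGE interneurons, was at 31.2 and 6.43 CPM, or 6 and 1 UMIs, against 703 and 581 CPM. SATB1, which promotes the maturation of Sst interneurons, was at 172 and 193 CPM against 772 and 672. NPAS3, a basic helix-loop-helix factor, was at 104 and 283 CPM against 6410 and 5519, and the other lower factors were NR2F1, TSHZ3 and ZEB2. At 2000 UMIs per nucleus, MAF was detected in 2.13% of left-out nuclei and 66.6% of Sst nuclei, and NPAS3 in 17.0% and 99.0%.

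Genes of nitric oxide signalling other than NOS1 were not higher as a list. Of 10 genes of nitric oxide and cGMP signalling past the filter, 1 was higher, NOS1 itself, and 2 were lower. The shares of all genes were 1.52 and 2.74%. The 9 without NOS1 had a median log2 ratio of -0.75. GUCY1A2 and GUCY1B1, subunits of the guanylyl cyclase that binds nitric oxide, were at 603 and 791 CPM against 395 and 329, and at 135 and 83.6 CPM against 98.1 and 92.5. PRKG1, a cGMP-dependent kinase, was at 31.2 and 38.6 CPM against 149 and 193, and PDE9A, which degrades cGMP, at 10.4 and 32.1 CPM against 139 and 164.

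Among peptides and their handling, NPY and PNOC were the only neuropeptide genes beside SST to pass the filter, of 15 listed with a symbol. Of 11 genes of peptide processing and dense core vesicles, 1 was higher and 0 were lower, with a median of 0.03, where 1.52 and 2.74% of all genes were higher and lower. That gene was PCSK2, a proprotein convertase, at 2527 and 2179 CPM against 312 and 267. It was found in all 50 nuclei, and also in 94.1% of Vip nuclei. Of 7 peptide receptor and binding genes, CRHBP and NTSR1 were higher and OPRD1 and OXTR lower, with a median of -1.51 (-1.40 with genes at 0 set to 3 UMIs). The lower pair had 0 UMIs in the left-out nuclei and passed the level filter through Sst nuclei. NTSR1, a neurotensin receptor, was at 182 and 508 CPM against 11.0 and 15.6, and passed the level filter through the left-out nuclei. It was found in 30 of these, and 6 of them held 57.9% of its 114 UMIs. In Sst nuclei OXTR, the oxytocin receptor, was at 49.6 and 42.2 CPM and OPRD1, the delta opioid receptor, at 67.1 and 62.4 CPM.

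Of 25 genes of glutamate and GABA receptors, 0 were higher and 1 was lower, with a median of -0.42, a count near the shares over all genes of 1.52 and 2.74%. Of 7 receptors for amines, acetylcholine and adenosine, CHRM2 was higher and CHRNA4 and HTR2A lower, with a median of -0.51. CHRM2 passed the level filter through the left-out nuclei and the lower pair through Sst nuclei. CHRM2, an inhibitory muscarinic receptor, was at 67.6 and 77.1 CPM against 11.8 and 6.85. HTR2A, a serotonin receptor, had 0 and 1 UMIs against 101 and 95.5 CPM. Of the 36 cation channels past the filter, 2 were higher and 4 lower, with a median of -0.56. CACNA1H, a low-threshold calcium channel, was higher, at 198 and 270 CPM against 26.8 and 25.1. Among the lower ones, KCND2, a subunit of A-type potassium channels, was at 598 and 624 CPM against 4524 and 4687, and KCNJ3, a potassium channel subunit gated by G proteins, at 31.2 and 32.1 against 588 and 521.

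Of 49 axon guidance and adhesion genes, 2 were higher and 9 lower, with a median of -0.64, where 1.52 and 2.74% of all genes were higher and lower. SEMA5A, a semaphorin, was at 364 and 199 CPM against 14.9 and 20.9, and CDH20, a cadherin, at 250 and 283 against 29.9 and 28.5. SEMA5A passed the level filter through the left-out nuclei. The lower genes were the secreted semaphorins SEMA3A, SEMA3C and SEMA3E, the guidance cue SLIT2, the cadherins CDH7, CDH9 and CDH12, the ephrin receptor EPHA7, and NRXN3, a presynaptic adhesion protein at 2527 and 3607 CPM against 19006 and 14541. Of the general neuronal genes, SNAP25 of the synaptic fusion machinery was at 369 and 501 CPM against 902 and 859, the vesicle calcium sensor SYT1 at 1903 and 2224 against 3447 and 3007, and RBFOX3, which encodes NeuN, at 639 and 534 against 339 and 325. Just 2 calcium-binding genes and 1 activity-regulated gene passed the filter, and 0 of them differed by 4-fold.

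Against all 5 labelled GABAergic subclasses at once, Pvalb, Sst, Vip, Lamp5 and Frem1, fewer genes stood out. Of 6433 genes with a mean of at least 20 CPM over the 12 sums, 28 (0.435%) were at least 4-fold above the highest subclass in both animals. Outside the selection these were 25, all of which were also higher than Sst, and 20 had a symbol. The 10 highest of these with at least 10 UMIs in each animal were NPY, ADAMTS2, CHODL, NPSR1, FN1, GPR139, CRHBP, GSG1L, SYNPO2 and FBN1. For NPY the log2 ratio to the highest subclass was 5.65 in animal 1 and 4.82 in animal 2, and Lamp5 nuclei of animal 2 had the highest level of a GABAergic subclass, 5.43 CPM. For CHODL the ratios were 4.38 and 4.59, and for CRHBP 4.05 and 3.61. FN1 had ratios of 4.50 and 3.90 and was highest in Frem1 nuclei, at 7.13 and 24.2 CPM. NOS1 itself had its highest GABAergic level outside the left-out nuclei in Lamp5 nuclei, at 103 and 128 CPM.

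Of the labelled subclasses, Sst had the profile most correlated with that of the left-out NOS1 nuclei. Across 6847 genes without the selecting ones, the Spearman correlation of levels was 0.794 in animal 1 and 0.813 in animal 2 with Sst, 0.748 and 0.763 with Pvalb, and 0.731 and 0.755 with Frem1. Glutamatergic subclasses had means between 0.688 and 0.719, oligodendrocyte precursors 0.637 and endothelial cells 0.430. As a scale, Sst and Pvalb nuclei had a correlation of 0.892 and 0.895 with each other, at far greater depth. Sst nuclei had 0.803 and 0.811 with glutamatergic L5NP nuclei, also at greater depth. These values were close to those of the left-out nuclei with Sst. These correlations share the depth of the left-out sums, and in every other setting tried Sst was again the highest. Among the 4 labelled Sst types, Sst_1 had 0.788 and 0.806 and Sst_3 0.781 and 0.795, values that differed by less than the 2 animals did. Sst_2, the type with the fewest UMIs in animal 1, had 0.725 and 0.770.

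**Figure D5:**
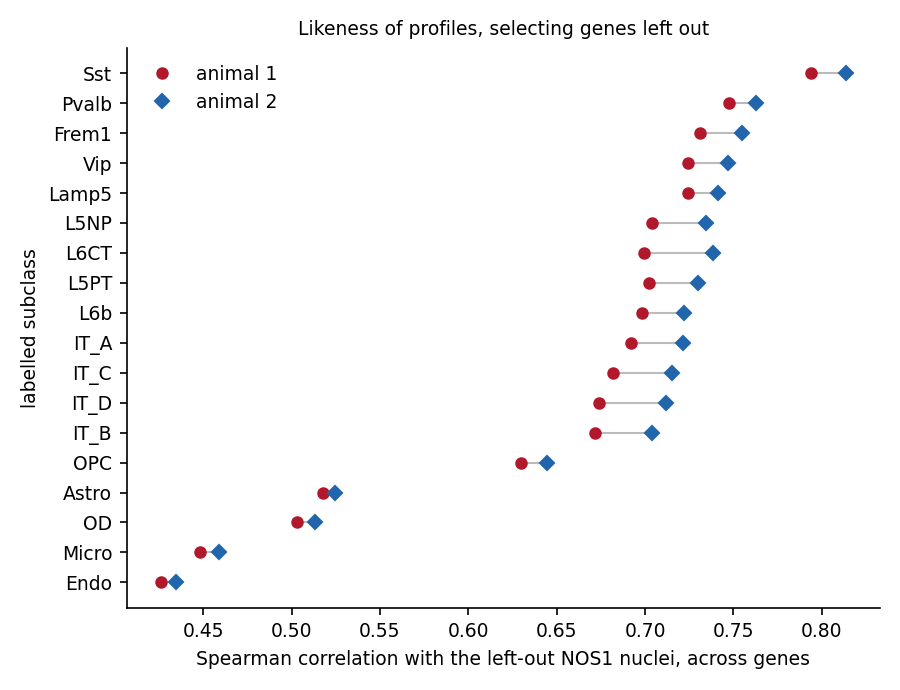
Spearman correlation across 6847 genes between the left-out NOS1 nuclei and each of the 18 labelled subclasses, 1 point per animal. Sst is highest in both animals (0.794 and 0.813), the other GABAergic subclasses follow, and endothelial cells are lowest.

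The 46 labelled Sst nuclei that met the same rule differed from the left-out nuclei in the genes compared. They were 29 nuclei in animal 1 and 17 in animal 2, with a median of 8019 UMIs. NOS1 stood at 50.8 and 118 CPM in them and TACR1 at 102 and 86.6, levels that partly follow from the rule. The genes compared outside the rule had been named for large ratios between left-out and Sst nuclei. In these genes the 46 stood nearer to other Sst nuclei. The authors' clustering had placed them there by their profiles, so this likeness is a description. MOXD1 was at 1364 and 654 CPM, RELN at 1886 and 764 and NPAS3 at 6932 and 4174. CHODL was at 3.63 and 7.88 CPM, CRHBP at 36.3 and 55.1, FN1 at 0, and NPY had 0 and 1 UMIs. None of the 4 Sst types reached the left-out nuclei in NOS1. The highest, Sst_4, was at 33.3 and 36.4 CPM, and its CRHBP was at 95.0 and 109 CPM, against 697 and 694 CPM in the left-out nuclei.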

How the data were processed

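Nuclei of 2 animals were profiled by the study with 10x 3′ libraries. Reads were aligned by the authors to ASM229v1, introns included, with 3′-extended Ensembl gene models. The deposited matrices hold each nucleus's raw UMI count by gene. The labels give Cell Ranger 6.1.1, the matrix headers 7.1.0. The deposited Scrublet score is a fraction between 0 and 1 computed by the authors. Clusters, classes and exclusions were theirs. Of 30800 genes, 11590 (37.6%) had a symbol, and genes without one were counted but not named. No coordinates or sequences were used here, and a few genes of the lists are not reported here.

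UMIs were summed per group and animal and scaled to CPM (Python 3.11.15, numpy 2.4.6, pandas 2.3.3, scipy 1.17.1). Ratios used 5 CPM added to each value and a mean of at least 20 CPM, and a call needed 4-fold in both animals. Named genes, outside the 4 selecting ones, were the 15 highest above Sst with at least 10 UMIs in each animal, the 10 lowest with at least 50 CPM in Sst of each animal, and the 10 highest above every GABAergic subclass with at least 10 UMIs. Other genes were named as members of listed groups, as genes that were 4-fold above all 18 subclasses, or as 4-fold different in the 6 nuclei rich in SST. The members and the lists were chosen with earlier results of these data known. The ratio and call steps were tested on simulated data, in which raising many abundant genes lowered the ratios of unchanged ones under scaling to totals. Alternatives were other pseudocounts and filters, TMM factors (edgeR 4.0.16), median-of-ratios factors (DESeq2 1.42.0), means over single nuclei, thinning, stricter or looser selection, removal of Scrublet doublets and leaving out each animal. Leaving out the 6 nuclei richest in SST was added after seeing the data. edgeR and DESeq2 gave scaling factors only.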

Additional observations from a re-analysis of the deposited data

How the results depend on the processing

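With 28 and 22 nuclei per animal, 1 UMI was worth 5.20 and 6.43 CPM in the left-out NOS1 nuclei, which limits all low genes. The nuclei were selected on these profiles, so no test of them was run. Genes higher than Sst numbered 96 and lay between 66 and 121 in the settings that kept both animals, lower ones numbered 173, and genes above every GABAergic subclass 28, between 20 and 40. With 20 CPM added the lower genes were 103, all of them among the 173. In the other settings that kept both animals they were 118 to 214. With 1 animal left out, and calls then resting on 1 animal, the counts were 150 to 153, 205 to 313 and 39 to 45. TMM factors moved the median log2 ratio of all genes to -0.22 and gave 84 higher and 210 lower genes. Without the 6 nuclei rich in SST, there were 94 higher, 155 lower and 24 genes above every GABAergic subclass, and 87, 148 and 23 of these were among those of all 50 nuclei. The mean correlation with Sst (0.804) was 0.636 with sums thinned to the smallest total and 0.777 over the 3000 genes that varied most between subclasses, and Sst ranked first in both, ahead of Pvalb at 0.597 and 0.712. Asking for all 4 genes lowered the share of nuclei from 0.143 to 0.105%, and asking for 2 gave the same 50 nuclei. The named genes were chosen for extreme ratios in both animals, so that they kept their direction is no sign of stability. The size of their log2 ratios depended on the value added, and of 29 ratios 17 moved by more than the SD between animals with 1 CPM and 22 with 20 CPM. SST, of the selecting genes, changed sign without the 6 nuclei (-0.012, from 1.43), which were its highest and were taken out of 1 group only. The left-out nuclei and the Sst nuclei were paired by animal, with ratios taken within each, and no test was run on the pairs.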
